A study of Homo sapiens with 6 samples.

Results

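The nuclear-encoded genes of oxidative phosphorylation were followed in the human colon adenocarcinoma line SW480, whose cells expressed either the fluorescent protein Clover (pLENTI CMV Clover, *n* = 3) or a truncated form of the nuclear RNA surveillance factor ZC3H18 (pLENTI CMV Z18trunc, *n* = 3). All 6 libraries were polyA-selected and came from lines that carried a lentiviral vector driven by the CMV promoter and were kept under antibiotic selection. The methods describe the lines as biological triplicates, and the Z18trunc lines kept their own ZC3H18 gene. Members were defined by a rule on gene names, and the gene set was chosen with earlier results of these data known. The rule took entries of the deposited gene tables whose names begin with UQCR, with ATP5 or with COX4 to COX8. It also took names that begin with NDUFA, NDUFB, NDUFC, NDUFS or NDUFV and a digit, and SDHA, SDHB, SDHC and SDHD. Pseudogene names were left out. This rule found 92 of 28307 entries, of which 87 are protein subunits, their tissue-restricted isoforms or the ATP synthase inhibitor ATP5IF1. The other 5 are read-through entries (ATP5MF-PTCD1 and NDUFC2-KCTD14), antisense entries (NDUFB2-AS1 and NDUFV2-AS1) and a divergent transcript (NDUFA6-DT). The rule misses subunits with other names, such as NDUFAB1, the acyl carrier protein of complex I, and CYC1, cytochrome c1 of complex III. The sums, shares and levels of these complexes are without them, and the subunits encoded by mitochondrial DNA were not analysed here.

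Oxidative phosphorylation couples the oxidation of NADH and succinate to the synthesis of ATP in the inner mitochondrial membrane. Complexes I, III and IV pass electrons to oxygen and pump protons, complex II feeds electrons from the tricarboxylic acid cycle without pumping, and complex V uses the proton gradient to make ATP. Most of the subunits are encoded in the nucleus, translated in the cytosol and imported, and their genes are known to share promoter motifs for the factors NRF1, GABPA (an ETS factor) and YY1. Colon epithelium is an oxidative tissue, whereas colon cancer lines are known to use glycolysis heavily as well.

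The letters of these motifs were searched in the RefSeq promoter windows (GRCh38.p14) of the subunit genes, because the members are known as a set under shared promoter control. A window ran from 250 bases before to 50 bases after the most upstream start of a gene among these windows, and 71 of the 87 subunit genes had one. The deposited gene tables place some starts further upstream, such as 218223 for SDHA and 25735654 for ATP5PF. Those windows lie partly or wholly within the gene as measured here. The letters CCGGAAG (ETS), GCGCNTGCG (NRF1) and AAGATGGCG (YY1) were searched on both strands. An ETS match was present in 28.2% of the subunit windows, an NRF1 match in 31.0% and a YY1 match in 11.3%. The shares among the 10069 windows of tested genes were 19.6%, 15.1% and 4.002%, and among the 27305 windows of all genes 10.6%, 8.05% and 1.82%. At least 1 of the 3 motifs was found in 39 of the 71 subunit windows, or 54.9%, against 33.8% of the windows of tested genes. The median GC content of the subunit windows was 60.3%, below the 65.7% of tested genes. Matches were found in 16 of 31 windows of complex I, 3 of 3 of complex II, 6 of 7 of complex III, 6 of 16 of complex IV and 8 of 14 of complex V.

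The 250 bases before the start are shown for genes of each complex that hold at least 1 match, read 5′ to 3′ on the strand of the gene, with the matched letters in capitals. They were chosen to show the different combinations, from a single ETS match in NDUFS1 and a single NRF1 match in the stretch shown for UQCRC1, whose YY1 match begins 24 bases after the start, to all 3 motifs in ATP5PF.
NDUFS1, chr2:206159445-206159694, minus strand: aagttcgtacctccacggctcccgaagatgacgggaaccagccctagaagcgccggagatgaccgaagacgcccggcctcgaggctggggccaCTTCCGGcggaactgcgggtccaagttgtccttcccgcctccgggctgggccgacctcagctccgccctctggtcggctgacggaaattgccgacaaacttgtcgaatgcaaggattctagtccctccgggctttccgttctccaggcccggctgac
SDHA, chr5:218070-218319, plus strand: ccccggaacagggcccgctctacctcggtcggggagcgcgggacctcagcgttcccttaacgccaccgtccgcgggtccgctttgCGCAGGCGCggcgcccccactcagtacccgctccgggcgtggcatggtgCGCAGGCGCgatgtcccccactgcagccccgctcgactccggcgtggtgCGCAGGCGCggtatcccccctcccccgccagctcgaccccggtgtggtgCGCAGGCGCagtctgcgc
SDHD, chr11:112086623-112086872, plus strand: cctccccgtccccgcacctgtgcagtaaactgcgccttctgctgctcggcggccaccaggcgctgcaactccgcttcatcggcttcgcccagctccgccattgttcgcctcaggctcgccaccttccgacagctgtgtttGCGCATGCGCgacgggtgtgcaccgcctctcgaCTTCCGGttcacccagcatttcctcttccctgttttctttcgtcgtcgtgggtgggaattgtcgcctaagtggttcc
UQCRC1, chr3:48609647-48609896, minus strand: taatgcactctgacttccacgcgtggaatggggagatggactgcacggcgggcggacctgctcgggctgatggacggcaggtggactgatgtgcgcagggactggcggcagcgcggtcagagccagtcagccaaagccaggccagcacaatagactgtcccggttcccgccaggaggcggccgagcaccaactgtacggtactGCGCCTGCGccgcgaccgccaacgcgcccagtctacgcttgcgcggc
COX6A1, chr12:120437863-120438112, plus strand: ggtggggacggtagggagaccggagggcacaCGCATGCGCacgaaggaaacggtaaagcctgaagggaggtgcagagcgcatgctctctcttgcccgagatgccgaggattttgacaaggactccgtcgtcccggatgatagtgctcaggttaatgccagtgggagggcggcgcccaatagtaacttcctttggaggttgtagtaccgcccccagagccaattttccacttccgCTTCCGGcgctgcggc
ATP5PF, chr21:25735055-25735304, minus strand: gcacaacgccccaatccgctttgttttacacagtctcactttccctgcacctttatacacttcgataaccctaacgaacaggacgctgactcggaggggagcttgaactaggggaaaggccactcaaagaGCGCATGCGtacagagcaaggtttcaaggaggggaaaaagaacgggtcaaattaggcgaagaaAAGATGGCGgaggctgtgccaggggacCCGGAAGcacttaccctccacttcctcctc

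In SDHA, which encodes the flavoprotein of complex II, the NRF1 letters occurred 4 times, beginning 165, 116, 67 and 18 bases before the start. In SDHD, a membrane anchor of the same complex, the NRF1 letters matched on both strands over the same stretch, and an ETS match lay 77 bases before the start. ATP5PF, a subunit of the peripheral stalk of ATP synthase, held an NRF1 match 120 bases, a YY1 match 57 bases and an ETS match 30 bases before the start. Such matches describe the letters of these windows and are not evidence of binding in these cells.

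Depth was similar between the groups, with 19130373 to 22463310 aligned fragments in the Clover libraries and 18226033 to 22454103 in the Z18trunc libraries, and the median tested member was covered 283 to 377 times per base. ZC3H18 was measured first as the perturbed gene. From 57.2 ± 5.39 TPM in the Clover libraries (mean ± SD, *n* = 3) its level went to 763 ± 31.2 TPM in the Z18trunc libraries (*n* = 3), a log2 change of 3.72 (SE 0.09, limma adjusted p = 3.2e-05). TPM is the number of transcripts of a gene per 1000000 transcripts of the library, and it is corrected for length. The summed level of 9 colon epithelial markers was 23322 to 24914 TPM in Clover and 22872 to 23984 TPM in Z18trunc, with KRT20 and CDX1 at 0 in all libraries. Most of this sum was keratin RNA, with Clover means of 11640 TPM for KRT18, 9937 TPM for KRT8 and 2158 TPM for KRT19. The Clover means of EPCAM, CDX2, VIL1 and CDH1 were 302, 47.5, 12.3 and 11.4 TPM. The marker lists of fibroblasts, leukocytes, endothelial cells and muscle cells summed to at most 2.28, 5.33, 0.503 and 3.15 TPM in any library.

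The 87 subunit genes held a large and even share of the transcriptome. Their summed level was 22546, 23688 and 22497 TPM in the Clover libraries and 22326, 21742 and 21924 TPM in the Z18trunc libraries. The highest sum was that of Clover replicate 2, and the groups did not overlap, although the lowest Clover and the highest Z18trunc library lay close together. The means were 22910 ± 674 TPM for Clover and 21997 ± 299 TPM for Z18trunc (SD, *n* = 3), which differed by a log2 ratio of -0.06, or -0.03 without Clover replicate 2. In bulk RNA, fewer cells of a type and less RNA per cell cannot be told apart.

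Within the respiratory chain, complex I contributed 34.9% of the summed subunit TPM in Clover, complex V 31.9%, complex IV 22.8%, complex III 7.66% and complex II 2.74%. Complex I has the most subunit genes (36), so its level per gene is given beside its sum. Over the tested subunits only (14 of the 19 listed for complex IV), the median level in the 6 libraries was 288 TPM for complex IV, 286 TPM for complex V, 179 TPM for complex I, 162 TPM for complex II and 146 TPM for complex III. The levels of complex IV and complex V differed little, and those of the tested subunits ran from 3.27 TPM for NDUFA4L2 to 1488 TPM for ATP5F1B, the catalytic beta subunit of ATP synthase.

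**Figure D1:**
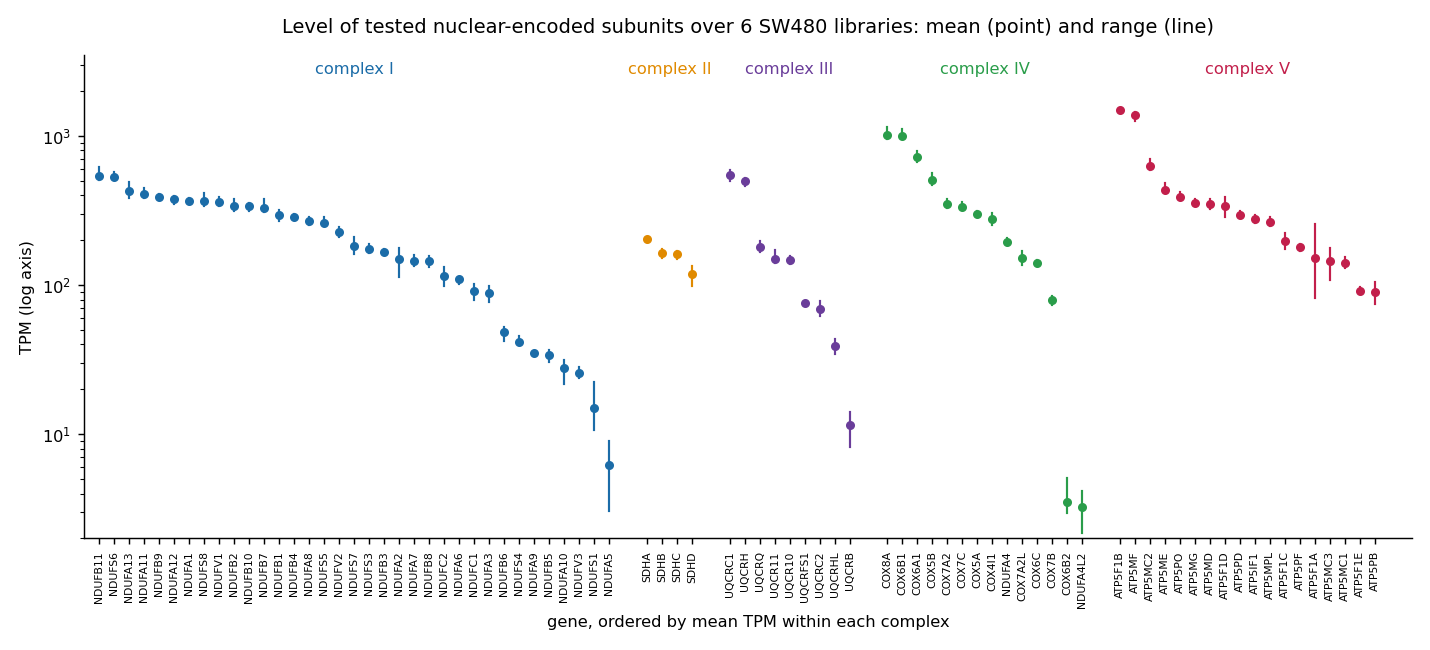
Mean TPM (points, log axis) and range over the 6 libraries (lines) of tested subunit genes, ordered by level within each complex. ATP5F1B and ATP5MF of complex V and COX8A and COX6B1 of complex IV stand highest, and the range is widest for ATP5F1A, NDUFA5 and NDUFS1.

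The most abundant member of each complex was NDUFB11 in complex I (565 ± 52.0 TPM in Clover, SD, *n* = 3), SDHA in complex II (199 ± 4.74 TPM), UQCRC1 in complex III (569 ± 16.2 TPM), COX8A in complex IV (1062 ± 76.1 TPM) and ATP5F1B in complex V (1503 ± 45.8 TPM). NDUFB11 and COX8A are small accessory subunits, UQCRC1 is a core protein of the bc1 complex and the other two are catalytic. At the low end of complex I stood NDUFA5, an accessory subunit, at 7.15 ± 0.293 TPM and NDUFS1, the large iron-sulfur subunit that takes electrons from the flavin site, at 12.4 ± 1.51 TPM in Clover. Its catalytic partner NDUFV1, which binds NADH, was much higher at 382 ± 7.99 TPM. UQCRB, a small subunit that binds ubiquinone in complex III, was listed at 9.99 ± 2.12 TPM, while UQCRH, the hinge protein, was listed at 509 ± 9.12 TPM. Reads of near-identical copies could be divided between entries by the authors' counting, and 48 of the 87 subunit genes have at least 1 named RefSeq pseudogene, 200 pseudogenes in all. COX6C has 18, and NDUFA5 and NDUFB4 have 12 each. In the deposited gene tables, UQCRBP1 was the only entry that the rule excluded for a pseudogene name, and it was listed at 0.983 to 1.88 TPM.

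Several subunits have isoforms made by separate genes, and the ubiquitous forms held nearly all of the RNA. COX4I1, COX6A1 and COX7B were detected in every library, whereas their counterparts COX4I2 (lung), COX6A2 (heart and muscle) and COX7B2 (testis) were listed at 0 in all 6 libraries, as was the muscle form COX7A1. COX8C, the testis form of COX8A, was listed at 0.563 TPM in Clover replicate 3 and at 0 in the other libraries. COX6B1 made up 99.7% and 99.6% of the COX6B pair in Clover and Z18trunc, against a low level of the testis form COX6B2 (3.13 ± 0.214 TPM in Clover). The hypoxia-inducible NDUFA4L2 held 1.69 ± 0.542% of the RNA of its pair with NDUFA4 in Clover and 1.60 ± 0.344% in Z18trunc (SD, *n* = 3). NDUFA4, which was first assigned to complex I and is now placed in complex IV, stood at 191 ± 5.80 TPM in Clover and 201 ± 5.84 TPM in Z18trunc. COX7A2 held 69.6 ± 2.11% of its group and COX7A2L, which takes part in supercomplex assembly, 30.4 ± 2.11% in Clover, and the shares were 69.9 ± 1.27% and 30.1 ± 1.27% in Z18trunc. UQCRHL, an intronless copy of UQCRH, held 7.16 ± 0.667% and 7.52 ± 0.307% of that pair.

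The c-ring of ATP synthase is built from identical mature proteins encoded by ATP5MC1, ATP5MC2 and ATP5MC3. ATP5MC2 held 70.6 ± 2.44% of their RNA in Clover and 66.9 ± 0.751% in Z18trunc, ATP5MC1 15.4 ± 0.417% and 15.5 ± 0.959%, and ATP5MC3 14.04 ± 2.84% and 17.6 ± 0.255% (SD, *n* = 3). ATP5MC3 was listed at 111, 178 and 109 TPM in the Clover libraries and at 159, 155 and 162 TPM in the Z18trunc libraries. Clover replicate 2 was therefore above every Z18trunc library, while the other two Clover libraries lay far below them. The log2 change of ATP5MC3 was 0.30 (SE 0.19, limma adjusted p = 0.346), the highest of complex V, and it was 0.53 without Clover replicate 2. The summed c-ring RNA was 932 ± 87.4 TPM in Clover and 900 ± 8.49 TPM in Z18trunc.

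To ask whether expression of truncated ZC3H18 changed these genes, all 13300 genes with a mean of at least 1 TPM were tested with limma on log2(TPM + 1), a scale that understates the change of low genes. Of the members, 84 were tested, 81 of them subunits. The 8 members below this level were the 4 isoforms listed at 0 in every library, COX8C, ATP5MGL (at most 0.794 TPM), NDUFV2-AS1 and NDUFC2-KCTD14, which was listed at 4.68 TPM in Clover replicate 1 and at 0 elsewhere. No member passed an adjusted p of 0.05 (Benjamini-Hochberg over all 13300 genes), where 0.0150% of all genes tested passed. Before adjustment, 4 members were higher in Z18trunc with p under 0.05 and 2 were lower, where 25.6% of all genes tested were higher and 2.90% lower. Counted by libraries, 7 members had all 3 Z18trunc libraries above all 3 Clover libraries and 15 had all 3 below, against 30.1% and 6.73% of all genes tested.

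The log2 changes of the members were small. Of the 84, 71 lay within 0.2 of zero on the log2 scale, 31 were above zero and 53 below, and their median was -0.03. The median of all genes tested was 0.11, so that the median member lay 0.14 below the median gene. After quantile normalization, which shifted the median of all genes by -0.11, the split was 26 above and 58 below with a median of -0.04, against -0.01 for all genes, and the distance narrowed to 0.03. On quantile-normalized values 2 members were higher and 4 lower with an unadjusted p under 0.05, where 12.8% of all genes were higher and 10.9% lower. With each library centred on its median gene the split was 7 above and 77 below, and 0 members were higher and 30 lower with an unadjusted p under 0.05, where 10.2% of all genes were higher and 18.5% lower. Centring moved all genes alike, with 58.1% of them below zero and a median of -0.06, so the distance of the median member stayed at 0.14.

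**Figure D2:**
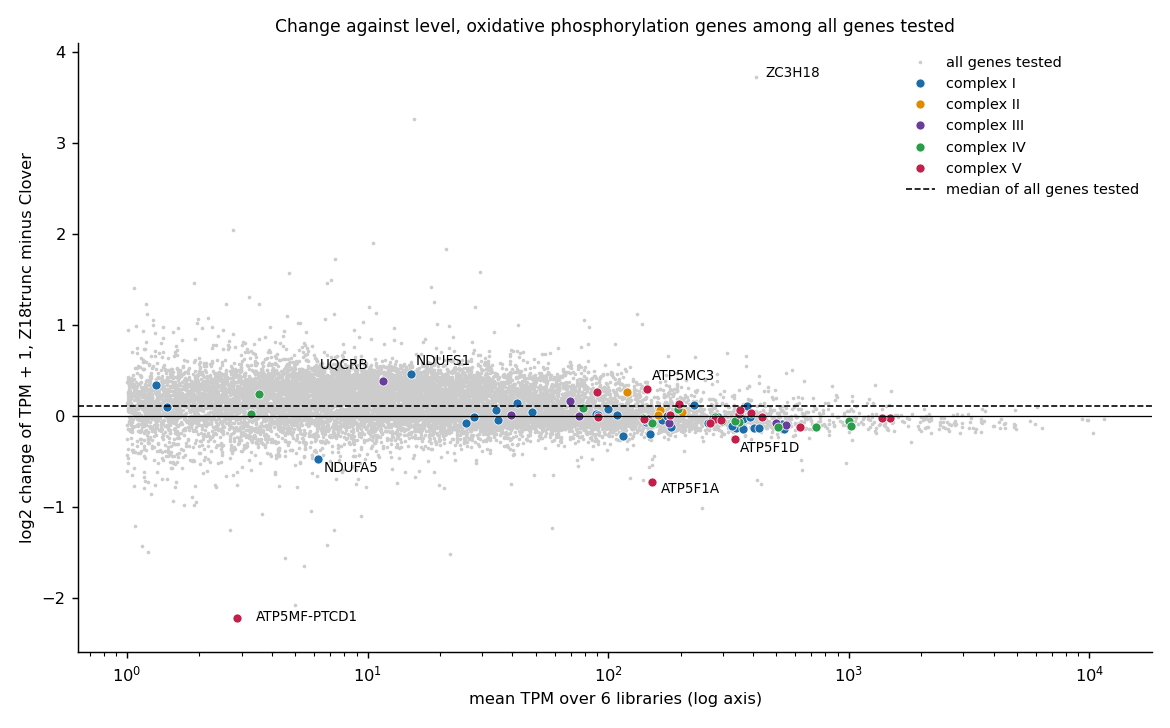
Log2 change of TPM + 1 (Z18trunc minus Clover) against mean TPM (log axis) for 13300 genes (grey) and the 84 tested members (coloured by complex). Members sit mostly at 100 TPM or more and just below zero, while the median of all genes (dashed, 0.11) is set by genes of lower level.

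The members are abundant, and abundant genes as a whole had lower changes than the rest. Among all 1692 genes with a mean of at least 100 TPM, the median log2 change was -0.03 and 58.9% were below zero. The 61 subunits in that range had a median of -0.05 and 75.4% of them, or 46, were below zero. At 300 TPM or more, 67.4% of 549 genes and 24 of 28 subunits were below zero, with medians of -0.05 and -0.08. Between 30 and 100 TPM the median was 0.04 for all genes and 0.04 for the 13 subunits. The part of level in the position of the members was not tested.

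**Figure D3:**
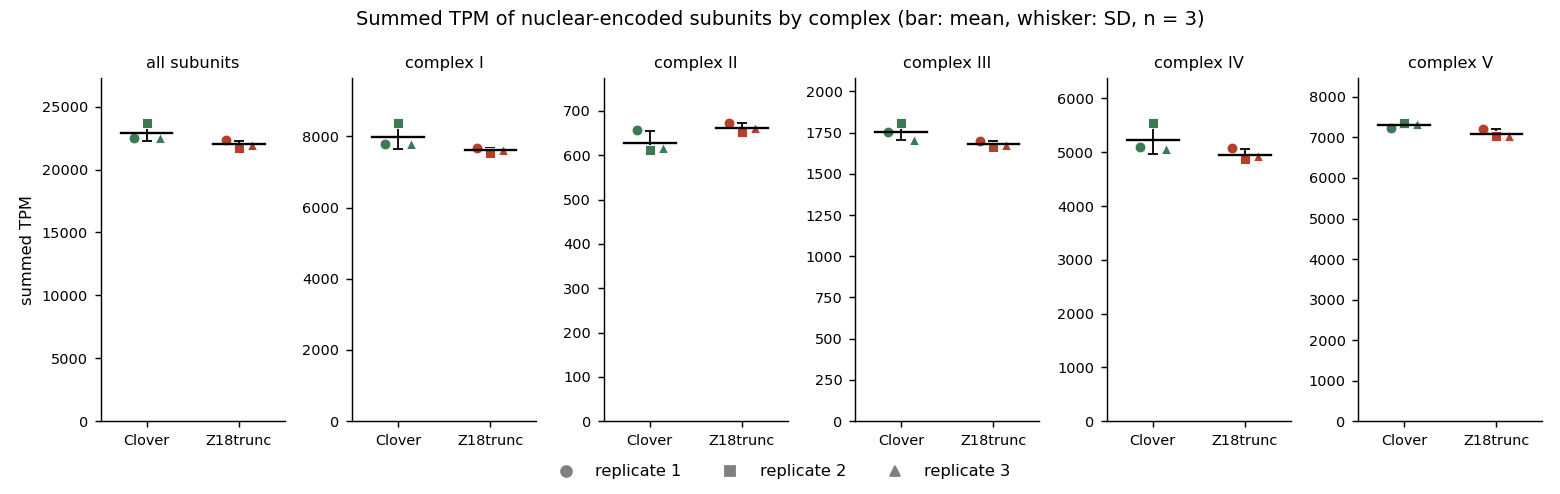
Summed TPM of the nuclear-encoded subunits of each complex in each library (points, shaped by replicate number), with the mean and SD of each group (*n* = 3). The groups did not overlap for all subunits and for complexes I, III and V, and they overlapped for complexes II and IV in TPM as deposited. The sum of complex V includes ATP5F1A, whose TPM varied widely at nearly even read depth.

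By complex, the summed levels differed between the groups by a few percent. Complex I, the proton-pumping NADH dehydrogenase, summed to 7802, 8375 and 7785 TPM in Clover and to 7663, 7532 and 7633 TPM in Z18trunc, a log2 ratio of -0.07. Clover replicate 2 stood above the other libraries, and without it the ratio was -0.03. Complex III, the bc1 complex, taken without CYC1, summed to 1753, 1807 and 1708 TPM and to 1698, 1663 and 1673 TPM. The log2 ratio was also -0.07. Complex IV, cytochrome c oxidase, summed to 5098, 5541 and 5061 TPM and to 5079, 4871 and 4924 TPM, a log2 ratio of -0.08, and its groups overlapped. Without Clover replicate 2, the log2 ratio of complex IV was -0.03. Complex V, ATP synthase, summed to 7236, 7353 and 7327 TPM and to 7214, 7024 and 7032 TPM, a log2 ratio of -0.04 that was -0.01 on quantile-normalized values. These sums were not tested, and whether their groups overlapped depended on the setting. The complex V sum includes ATP5F1A, listed at 198 ± 100 TPM in Clover and 108 ± 29.3 TPM in Z18trunc but at nearly even read depth (below). No sum without ATP5F1A was made. The groups of complex V overlapped after quantile normalization, without its most abundant member and on read depth per base, and those of complex III overlapped without UQCRC1. Those of complex IV did not overlap on read depth or when either Clover replicate 3 or Z18trunc replicate 1 was left out, and those of complex II when either Clover replicate 1 or Z18trunc replicate 2 was left out.

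Complex II was the only complex whose summed TPM was higher in Z18trunc, at 658, 611 and 617 TPM in Clover and 673, 653 and 662 TPM in Z18trunc, a log2 ratio of 0.08 with overlapping groups. The 4 genes all had log2 changes above zero, but 3 of the 4 were below zero after centring on the median gene, and on read depth per base (below) the sum had a log2 ratio of -0.02. SDHD was the only one of them at an unadjusted p under 0.05. Its level was 114, 99.2 and 113 TPM in Clover and 131, 126 and 133 TPM in Z18trunc. All Z18trunc libraries were above all Clover libraries, with a log2 change of 0.26 (SE 0.08, unadjusted p = 0.0171, limma adjusted p = 0.106). SDHA, the flavoprotein, stood at 199 ± 4.74 and 205 ± 1.54 TPM, SDHB, the iron-sulfur subunit, at 160 ± 9.59 and 167 ± 7.56 TPM and SDHC, the other membrane anchor, at 160 ± 9.15 and 161 ± 2.99 TPM (SD, *n* = 3).

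In complex I, 11 of the 36 subunits had log2 changes above zero and 25 below, with a median of -0.05. NDUFS1 was higher in Z18trunc at 13.4, 10.7 and 13.2 TPM in Clover and 22.6, 14.2 and 16.5 TPM in Z18trunc. The groups did not overlap, and Z18trunc replicate 1 stood far above the others. Its log2 change came to 0.46 (SE 0.17, unadjusted p = 0.0334, limma adjusted p = 0.144), the highest of any subunit, and it ranged from 0.28 to 0.60 when single libraries were left out. NDUFV1 was lower in all Z18trunc libraries, at 380, 391 and 376 TPM in Clover and 345, 349 and 341 TPM in Z18trunc. Its spread was narrow, and its log2 change was -0.15 (SE 0.06, unadjusted p = 0.0554, limma adjusted p = 0.186). The core subunits NDUFS1 and NDUFV1 thus differed in direction in TPM.

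The lowest log2 change of complex I was that of NDUFA5, an accessory subunit of the peripheral arm, at 7.28, 7.35 and 6.81 TPM in Clover and 3.04, 8.95 and 3.99 TPM in Z18trunc. Z18trunc replicate 2 was the highest library of all, so the groups overlapped (log2 change -0.48, SE 0.31, limma adjusted p = 0.353). Its log2 change was -0.21 without Z18trunc replicate 1 and -0.86 without Z18trunc replicate 2. NDUFB11, the most abundant member, was at 557, 621 and 518 TPM in Clover and 507, 507 and 519 TPM in Z18trunc, with overlapping groups and a log2 change of -0.14 (SE 0.09, limma adjusted p = 0.318), which was -0.07 without Clover replicate 2.

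In complex III, 3 of 9 subunits were above zero and 6 below. UQCRB was listed at 12.3, 9.46 and 8.18 TPM in Clover and 13.5, 11.9 and 14.1 TPM in Z18trunc. Clover replicate 1 lay above Z18trunc replicate 2. For UQCRB the log2 change came to 0.38 (SE 0.15, unadjusted p = 0.0377, limma adjusted p = 0.153). UQCRC1 had the lowest log2 change of the complex, -0.11 (SE 0.07, limma adjusted p = 0.387), from 569 ± 16.2 to 529 ± 30.4 TPM (SD, *n* = 3). UQCRFS1, the Rieske iron-sulfur protein that passes electrons to cytochrome c1, was at 75.7 ± 2.01 and 75.7 ± 0.477 TPM, a log2 change of 0.00 with an SE of 0.06.

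In complex IV, 4 of the 14 tested subunits were above zero and 10 below, and none reached an unadjusted p under 0.05. COX6A1 had the lowest change, at 736, 789 and 755 TPM in Clover and 729, 671 and 688 TPM in Z18trunc. Its groups were separated by a narrow margin, with a log2 change of -0.13 (SE 0.07, limma adjusted p = 0.288). COX8A was at 1027, 1150 and 1010 TPM and at 989, 998 and 955 TPM, again without overlap, with a log2 change of -0.11 (SE 0.08, limma adjusted p = 0.382), which was -0.06 without Clover replicate 2. COX4I1, the regulatory subunit that binds ATP, was at 279 ± 21.05 and 277 ± 26.3 TPM, and COX5A, which binds next to it, at 304 ± 9.08 and 292 ± 5.56 TPM (SD, *n* = 3). COX6B2 went from 3.13 ± 0.214 to 3.94 ± 1.06 TPM (log2 change 0.24, SE 0.15, limma adjusted p = 0.354). This change varied with the library left out, at 0.08 without Z18trunc replicate 3 and 0.39 without Z18trunc replicate 2, and it was 0.07 after quantile normalization.

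In complex V, 7 of the 18 tested subunits were above zero and 11 below. ATP5F1D, the delta subunit of the central stalk, was lower in Z18trunc at 356, 388 and 359 TPM in Clover and 286, 313 and 322 TPM in Z18trunc. No Z18trunc library reached the lowest Clover library. For ATP5F1D the log2 change came to -0.26 (SE 0.08, unadjusted p = 0.0144, limma adjusted p = 0.0993). ATP5PB, the b subunit of the peripheral stalk, was higher at 87.6, 75.1 and 82.6 TPM in Clover and 105, 90.3 and 98.9 TPM in Z18trunc. The groups did not overlap, with a log2 change of 0.26 (SE 0.09, unadjusted p = 0.0277, limma adjusted p = 0.132). ATP5F1B, the catalytic beta subunit, was at 1503 ± 45.8 and 1473 ± 26.7 TPM, and ATP5IF1, the inhibitor that blocks ATP hydrolysis by the enzyme, was at 281 ± 15.0 and 274 ± 16.8 TPM (SD, *n* = 3).

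**Figure D4:**
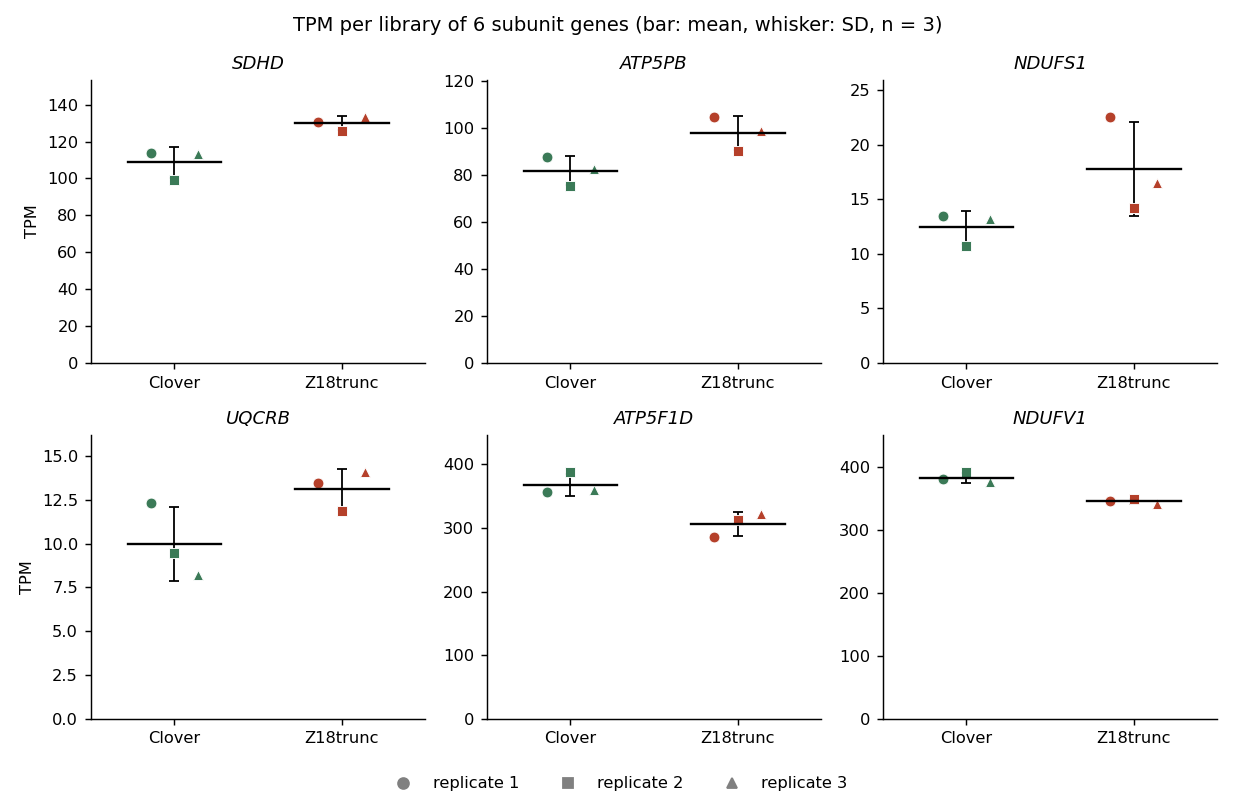
TPM in each library (points, shaped by replicate number) with the mean and SD of each group (*n* = 3) for 6 subunit genes. SDHD, ATP5PB and NDUFS1 were higher and ATP5F1D and NDUFV1 lower in all Z18trunc libraries, while for UQCRB Clover replicate 1 lies within the Z18trunc range.

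The spread between libraries of a group was small for most subunits. The median within-group SD was 0.08 on the log2 scale for the 81 subunits, against 0.13 for all genes tested, and subunits are more abundant than most genes. It exceeded 0.2 for 9 subunits, which were ATP5F1A, ATP5MC3, COX6B2, NDUFA10, NDUFA2, NDUFA4L2, NDUFA5, NDUFS1 and UQCRB. Of the 81 subunits, 36 had their highest value in Clover replicate 2 and 22 their lowest in Z18trunc replicate 2. The median deviation of the subunits from their mean over the 6 libraries was 0.06 (log2) in Clover replicate 2 and -0.04 in Z18trunc replicate 2, where that of all genes tested was -0.13 and 0.06.

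ATP5F1A, the alpha subunit that forms the catalytic head with ATP5F1B, had the largest spread of all subunits. It was listed at 255, 81.8 and 256 TPM in Clover and at 141, 93.2 and 88.5 TPM in Z18trunc. Clover replicate 2 was the lowest library of all, so the groups overlapped. For ATP5F1A the log2 change came to -0.73 (SE 0.45, limma adjusted p = 0.335). The deposited tables also give the mean read depth per base of each gene, and per 1000000 aligned fragments this was 9.42, 9.12 and 9.52 for ATP5F1A in Clover and 9.72, 8.95 and 8.61 in Z18trunc. The depth was thus nearly even, with a log2 change of -0.04 (SE 0.07, limma adjusted p = 0.712). The ratio of depth to TPM, relative to the median gene of each library, varied 2.87-fold between libraries for ATP5F1A, while for each of the other 80 tested subunits it varied by at most 1.195-fold. A variation over 1.5-fold was found in 1.61% of all genes tested.

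On read depth the subunits with an unadjusted p under 0.05 in TPM had changes in the same direction as on TPM. So had the read-through entry ATP5MF-PTCD1 (below), with a log2 change in depth of -2.40 (limma adjusted p = 0.0863). The log2 change in depth was 0.17 for SDHD (SE 0.07), 0.18 for ATP5PB (SE 0.08), 0.40 for NDUFS1 (SE 0.18), 0.31 for UQCRB (SE 0.14) and -0.32 for ATP5F1D (SE 0.08), with limma adjusted p-values from 0.0974 to 0.205. Depth is relative to all aligned fragments rather than to the summed gene levels, and on this scale 15 members were above zero and 69 below, with a median of -0.11 against 0.04 for all genes. With an unadjusted p under 0.05, 1 member was higher and 9 were lower in depth, where 20.0% of all genes were higher and 7.92% lower.

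The lowest log2 change among the members, and among all 13300 genes, was that of the read-through entry ATP5MF-PTCD1 (hg38, chr7:99416739-99466167, minus strand). It joins ATP5MF, which encodes the f subunit of ATP synthase, with PTCD1, which encodes a mitochondrial RNA-binding protein. It was listed at 5.83, 5.45 and 4.57 TPM in Clover and at 0, 1.37 and 0 TPM in Z18trunc. All Z18trunc libraries were below all Clover libraries (log2 change on the log2(TPM + 1) scale -2.23, SE 0.33, unadjusted p = 0.000328, limma adjusted p = 0.0773). With 2 libraries at 0, the size of this change depends on the pseudocount, and it was -4.45 with a pseudocount of 0.1. It passed the threshold when Z18trunc replicate 2 was left out and with an intensity trend in the fit.

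The genes it spans were read beside it. ATP5MF was at 1306, 1412 and 1454 TPM in Clover and at 1411, 1430 and 1250 TPM in Z18trunc, a log2 change of -0.03 (SE 0.09). PTCD1, a gene chosen after its values were seen, was at 13.7, 10.9 and 14.01 TPM in Clover and 18.2, 16.5 and 16.3 TPM in Z18trunc, with no overlap and a log2 change of 0.38 (SE 0.11, limma adjusted p = 0.0934). The sum of PTCD1 and the read-through entry was 19.6, 16.3 and 18.6 TPM in Clover and 18.2, 17.9 and 16.3 TPM in Z18trunc, so the groups overlapped at 18.1 ± 1.66 and 17.5 ± 1.04 TPM (SD, *n* = 3). The entries overlap on the same strand, and whether their difference reflects the transcripts or the division of reads between entries was not tested. Of the 87 subunits, 15 overlap another entry on the same strand and 18 an entry on the opposite strand.

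**Figure D5:**
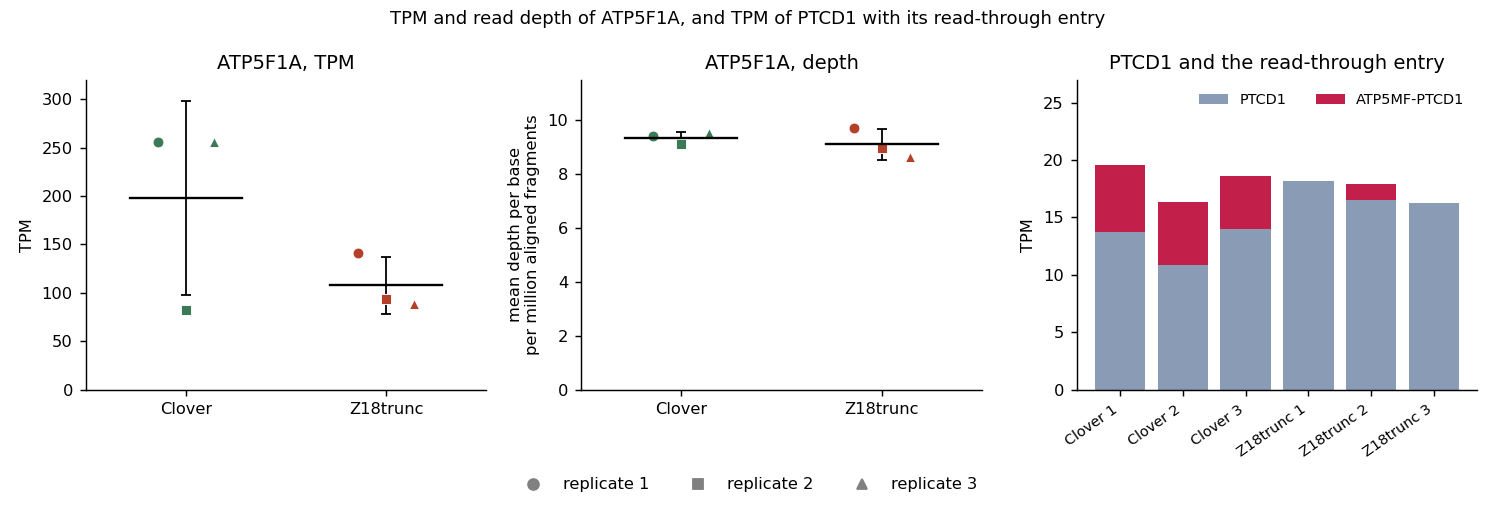
ATP5F1A in TPM (left) and in mean read depth per base per 1000000 aligned fragments (middle) for each library, with the mean and SD of each group (*n* = 3), and the TPM of PTCD1 stacked with that of ATP5MF-PTCD1 in each library (right). The TPM of ATP5F1A varied from 81.8 to 256 at a depth of 8.61 to 9.72, and the stacked bars stood between 16.3 and 19.6 TPM in all libraries.

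Genes that serve the same pathway were counted from lists of known roles. Of 50 assembly factors, which build the complexes but are not part of them, 4 were higher and 3 lower with an unadjusted p under 0.05, with a median log2 change of 0.07, where 25.6% of all genes tested were higher and 2.90% lower. The direction of this list turned with the scaling, to 1 higher and 9 lower with a median of -0.07 after quantile normalization, and to 1 higher and 11 lower with a median of -0.10 after centring. TTC19, a complex III factor, was at 31.1 ± 2.48 TPM in Clover and 40.0 ± 1.93 TPM in Z18trunc (log2 change 0.36, limma adjusted p = 0.0812), while BCS1L, which inserts the Rieske protein into the same complex, was at 69.1 ± 4.25 and 58.5 ± 2.83 TPM (log2 change -0.23, limma adjusted p = 0.117). Of 21 genes for electron carriers, coenzyme Q synthesis and transporters, 1 was higher (COQ7) and 1 lower (DHODH), with a median of -0.02. NDUFAB1 and DHODH were listed with them. This list had 0 higher and 3 lower (median -0.07) after quantile normalization and 0 and 8 (median -0.18) after centring. Among all genes tested, 12.8% were higher and 10.9% lower after quantile normalization, and 10.2% and 18.5% after centring. CYCS, the electron carrier cytochrome c, was at 92.0, 82.5 and 92.6 TPM and at 98.1, 98.4 and 113 TPM, without overlap (log2 change 0.21, SE 0.09, limma adjusted p = 0.186).

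Of 15 tested genes that regulate the nuclear-encoded subunits or act on mitochondrial DNA, 5 were higher and none lower (unadjusted p under 0.05). Among all genes tested, 25.6% were higher and 2.90% lower. The median of the list was 0.14 against 0.11 for all genes. The counts were 3 higher and 1 lower with a median of 0.01 after quantile normalization, where 12.8% and 10.9% of all genes passed. After centring they were 2 and 2 with a median of -0.02, where 10.2% and 18.5% passed. GABPA was at 7.24, 5.59 and 7.22 TPM in Clover and 8.43, 9.46 and 11.02 TPM in Z18trunc (log2 change 0.47, SE 0.13, limma adjusted p = 0.0890). TFAM, which activates transcription of mitochondrial DNA and packages it, was at 20.2, 16.3 and 19.1 TPM and at 22.2, 23.0 and 26.2 TPM (log2 change 0.35, SE 0.11, limma adjusted p = 0.1002). Neither gene had overlapping groups, and the log2 changes were 0.29 and 0.21 after quantile normalization. NRF1 itself was at 15.1 ± 1.91 and 16.8 ± 1.78 TPM with overlapping groups (log2 change 0.15, SE 0.12, limma adjusted p = 0.442), and the coactivator PPARGC1A was listed at no more than 0.0904 TPM in any library.

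Of 14 tricarboxylic acid cycle genes, 4 were higher and none lower (median 0.06), where 25.6% of all genes tested were higher and 2.90% lower. Among the 4 was IDH3A at 27.6 ± 2.63 and 35.6 ± 2.47 TPM (limma adjusted p = 0.0883). Of 18 glycolysis genes, 1 was higher, HK2 at 17.6 ± 3.61 and 26.7 ± 0.517 TPM (limma adjusted p = 0.0798), and none lower (median -0.01). After quantile normalization the counts were 2 higher and 0 lower for the cycle (median 0.07) and 2 and 1 for glycolysis (median 0.00). After centring they were 0 and 3 (median -0.10) and 1 and 6 (median -0.17). Of all genes tested, 12.8% were higher and 10.9% lower after quantile normalization, and 10.2% and 18.5% after centring. None of these lists held a gene at an adjusted p under 0.05. The cytosolic ribosomal protein genes, which like the subunits are abundant, had a median of -0.07 over 82 genes, and the 78 mitochondrial ribosomal protein genes a median of 0.00. These medians were -0.01 and -0.05 after quantile normalization and -0.24 and -0.17 after centring. Among the subunits with a promoter window, the 38 tested genes with at least 1 motif match had a median log2 change of -0.04, with 24 below zero, and the 30 without a match had a median of -0.05, with 21 below zero.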

How the data were processed

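Polyadenylated RNA from 3 Clover and 3 Z18trunc lines of SW480 cells was sequenced from stranded paired-end libraries. Trimming used cutadapt 4.6 per the submitters' processing notes, and reads were mapped to hg38. The gene tables have the layout of StringTie, and their annotation and strand setting are not given in the sources used here. The authors deposited TPM values per gene, which sum to 1000000 per library and carry no counts, and a coverage value, the mean read depth per base of each gene. TPM was summed by gene name over 28307 names. Member entries on alternative contigs held 0 TPM. Depth was the deposited coverage signal per 1000000 aligned fragments, which were read from the deposited element tables. Where a gene name had several rows, the highest coverage was kept, whereas TPM was summed. No counts could be tested.

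For the 13300 genes with a mean of at least 1 TPM, limma 3.58.1 in R 4.3.3 was run on log2(TPM + 1), with p-values adjusted by Benjamini-Hochberg over all of them and a threshold of 0.05. A fold change on this scale understates the change of low genes. The fit was also run on simulated data with independent noise and large known changes. That simulation did not cover changes as small as those of most members, nor a change that varies with level. Sums by complex, shares and medians over members were described without a test. The members, gene lists and named genes were chosen with earlier results of these data known. Genes were named as the most abundant, the highest and the lowest change of each complex, the 5 smallest unadjusted p-values in each direction, isoform groups, core subunits and a few regulators. The values of 1 core subunit are not reported here, though it is in the counts and sums. With 2 members lower at an unadjusted p under 0.05, the list of lower genes stopped there. Alternatives were quantile normalization, centring on the median gene, a pseudocount of 0.1, no filter, a filter at 10 TPM, an intensity trend, a replicate block, other make-ups of the sums and leaving out each library. Depth per base was added after seeing the data. Groups came from the sample titles.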

Additional observations from a re-analysis of the deposited data

How the results depend on the processing

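No member passed the adjusted threshold under any alternative except the intensity trend and the fit without Z18trunc replicate 2, in which 1 member passed, ATP5MF-PTCD1 (range over left-out libraries 0 to 1). Members higher at an unadjusted p under 0.05 numbered 4 as reported, 2 after quantile normalization, 0 after centring, 1 on depth per base and 0 to 6 with a library left out. Members lower numbered 2 as reported, 4 after quantile normalization, 30 after centring, 4 without a filter, 9 with an intensity trend, 9 on depth and 1 to 4 with a library left out. Among all 13300 genes, 3404 were higher as reported, 1708 after quantile normalization, 1357 after centring and 2654 on depth. With a library left out, 2370 to 3466 were higher and 281 to 398 lower. Lower genes numbered 386 as reported, 1448 after quantile normalization, 2460 after centring, 551 with an intensity trend and 1054 on depth. Without a filter, 573 of 19182 genes were lower. The median log2 change of the members was -0.20 after centring, -0.11 on depth and -0.05 to -0.01 with a library left out. The log2 ratio of the complex V sum was -0.011 after quantile normalization. On depth the ratios were -0.13 for all subunits, -0.15 for complex I, -0.017 for complex II, -0.14 for complex III, -0.16 for complex IV and -0.095 for complex V. The other make-ups of the sums and the left-out libraries kept the direction of every sum.

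Single genes near zero changed sign, and those listed here are only the ones among the genes chosen to be named. Over all 84 tested members, 31 were above zero as reported, 26 after quantile normalization, 7 after centring and 15 on depth. After centring, log2 changes were below zero for SDHA (-0.12), SDHC (-0.16), COX7B (-0.077), NDUFA4 (-0.088), NDUFA4L2 (-0.15), UQCRHL (-0.16), ATP5MG (-0.099) and SDHB (-0.11). On depth they were below zero for SDHA (-0.036), SDHC (-0.039), NDUFA4 (-0.0013), NDUFA4L2 (-0.045), UQCRHL (-0.075), ATP5MG (-0.013) and SDHB (-0.019). After quantile normalization the signs turned for SDHC (-0.0015), ATP5F1B (0.026), COX4I1 (0.0034), NDUFA4L2 (-0.14) and UQCRHL (-0.088). With a library left out, ranges crossed zero for SDHC (-0.041 to 0.040), COX4I1 (-0.085 to 0.052), NDUFA4L2 (-0.18 to 0.17), UQCRHL (-0.088 to 0.076), ATP5MC1 (-0.082 to 0.011) and UQCRFS1 (-0.012 to 0.021). The cause of these changes was not tested.

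The deviations of same-numbered libraries correlated at -0.0372 to 0.0172, so no deviation shared by replicate number was seen. Whether the lines were paired by design is not stated in the sources used here, and these values cannot decide it. With the replicate number as a block, 5 members were higher and 3 lower with an unadjusted p under 0.05 and 0 passed the adjustment. With this block 3193 of all 13300 genes were higher and 302 lower before adjustment. Across all genes limma called 2 as reported, 60 with an intensity trend, of which 1 was a member, and 695 of 7968 at a mean of at least 10 TPM, of which 0 were members. Without counts, the counting error behind each TPM is unknown.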
